A study of Mus musculus with 7 samples.

Results

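The regions described here are the Nfatc1 peaks called in R406-treated mouse fibroblasts that had no counterpart in the solvent control. A peak of the R406 list on chromosomes 1 to 19 or X was a member if it overlapped no peak of the DMSO list by 1 bp or more, which held for 21590 of 36799 R406 peaks (58.7%). The other 15209 R406 peaks overlapped a DMSO peak and are called shared. The DMSO list held 21157 peaks on the same chromosomes, of which 5714 (27.0%) overlapped no R406 peak and are called DMSO-only. The members were chosen by the peak positions called in these 2 libraries, so their number and their absence from the DMSO list are descriptions and were not tested.

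R406 is an inhibitor of the tyrosine kinase Syk and the active form of the drug fostamatinib. The cells were fibroblasts of OG2 mouse embryos (CBA-Tg(Pou5f1-EGFP)2Mnn/J) at day 13.5, whose Pou5f1-driven EGFP reports on pluripotency, kept in Stage 1 medium, a mixture of small molecules that starts chemical reprogramming. All CUT&Tag cells, the DMSO control included, carried rtTA and TetO-Flag-Nfatc1 lentivirus and received Dox, so the factor profiled was a tagged, virus-driven Nfatc1 and not the cells' own protein. They were given DMSO or R406 for 4 days, and 1 library was made per condition with an antibody to FLAG. A further library without primary antibody was not analysed here. RNA-seq covered 2 libraries with DMSO and 2 with R406 in Stage 1 medium, under a protocol of 12 days. For these the labels mention no virus. Nothing in the labels says that replicates were separate cultures, and p-values thus cover only the spread between these 4 libraries, which may be technical. Fibroblast genes were present in all 4 RNA libraries: all 27 members of the fibroblast and mesenchyme list had a mean of at least 1 TPM (a level that accounts for transcript length and library size), and the list summed to 6376 and 5209 TPM in DMSO and 7346 and 5436 TPM in R406.

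NFAT proteins are transcription factors held in the cytoplasm by phosphorylation. Calcium entering the cell activates the phosphatase calcineurin, which frees NFAT to enter the nucleus, where it binds the core GGAAA, often beside AP-1 dimers of Fos and Jun proteins. Kinases such as Syk act above this chain by way of phospholipase C gamma and calcium release. CUT&Tag marks where a factor sits by letting an antibody guide a transposase, so each peak rests on a count of cut DNA fragments.

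Sequence could be read for the promoter windows of RefSeq (build GRCm38.p6, the mm10 assembly of the peak lists), which run from 250 bases before to 50 bases after a start site. The summit of an R406-only peak lay in 1170 of 32619 such windows, belonging to 1105 genes. Below are the 250 bases before the start for 9 of them whose summit lay in that stretch. They were chosen after values were seen: the 2 of highest fold with a tested gene (Adsl, Naa35), the 3 genes with the largest rise (Col15a1, P2ry14, Ccdc3) and the 3 with the largest fall in RNA (Cadm2, Flnc, Npnt), and Hmcn2, the only R406-only window with the NFAT core GGAAA, then 3 bases, then the AP-1 site TGANTCA, a composite of both. Each is written 5′ to 3′ in the direction of transcription, and capitals mark GGAAA on either strand (TTTCC is its reverse complement) and, in Hmcn2, the whole composite. Adsl lies at chr15:80948240-80948489 on the plus strand and Naa35 at chr13:59585083-59585332 on the plus strand. Col15a1 lies at chr4:47207762-47208011 (plus), P2ry14 at chr3:59130763-59131012 (minus) and Ccdc3 at chr2:5137526-5137775 (plus). Cadm2 lies at chr16:67620909-67621158 (minus), Flnc at chr6:29432903-29433152 (plus), Npnt at chr3:132949815-132950064 (minus) and Hmcn2 at chr2:31314082-31314331 (plus). The starts used for Col15a1, P2ry14, Ccdc3 and Npnt are internal, so their printed runs lie wholly inside the gene span. The P2ry14 run is far from both ends of its span (chr3:59114623-59153492). Its peak there (chr3:59130736-59131211) is another than the R406-only peak at the end of that span (chr3:59154169-59154565).
Adsl: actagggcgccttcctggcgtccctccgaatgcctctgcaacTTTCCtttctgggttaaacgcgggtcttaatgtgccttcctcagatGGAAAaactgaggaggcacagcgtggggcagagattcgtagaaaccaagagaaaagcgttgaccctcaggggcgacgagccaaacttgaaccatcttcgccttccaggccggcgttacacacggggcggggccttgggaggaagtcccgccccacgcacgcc
Naa35: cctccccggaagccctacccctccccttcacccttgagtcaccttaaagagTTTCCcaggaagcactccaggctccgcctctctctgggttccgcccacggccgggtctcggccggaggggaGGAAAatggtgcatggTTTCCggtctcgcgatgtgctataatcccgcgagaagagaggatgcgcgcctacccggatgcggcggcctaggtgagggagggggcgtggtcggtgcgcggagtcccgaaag
Col15a1: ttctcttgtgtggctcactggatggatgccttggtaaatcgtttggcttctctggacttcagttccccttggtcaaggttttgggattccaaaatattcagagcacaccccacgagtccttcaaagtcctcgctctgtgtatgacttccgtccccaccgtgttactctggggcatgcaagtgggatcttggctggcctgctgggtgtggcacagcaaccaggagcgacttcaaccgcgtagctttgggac
P2ry14: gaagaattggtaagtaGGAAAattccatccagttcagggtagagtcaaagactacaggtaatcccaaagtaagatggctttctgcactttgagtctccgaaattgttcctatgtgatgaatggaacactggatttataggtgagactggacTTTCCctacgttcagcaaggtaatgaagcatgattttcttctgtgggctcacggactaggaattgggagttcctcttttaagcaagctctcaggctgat
Ccdc3: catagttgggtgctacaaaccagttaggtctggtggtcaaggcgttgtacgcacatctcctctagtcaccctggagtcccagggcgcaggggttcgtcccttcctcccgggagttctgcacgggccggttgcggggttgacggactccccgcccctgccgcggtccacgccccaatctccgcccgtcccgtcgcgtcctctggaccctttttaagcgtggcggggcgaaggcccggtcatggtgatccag
Cadm2: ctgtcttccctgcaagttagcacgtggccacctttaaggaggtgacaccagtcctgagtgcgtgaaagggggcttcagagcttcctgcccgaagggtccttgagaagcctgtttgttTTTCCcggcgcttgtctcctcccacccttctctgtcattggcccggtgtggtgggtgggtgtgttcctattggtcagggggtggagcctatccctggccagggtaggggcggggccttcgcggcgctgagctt
Flnc: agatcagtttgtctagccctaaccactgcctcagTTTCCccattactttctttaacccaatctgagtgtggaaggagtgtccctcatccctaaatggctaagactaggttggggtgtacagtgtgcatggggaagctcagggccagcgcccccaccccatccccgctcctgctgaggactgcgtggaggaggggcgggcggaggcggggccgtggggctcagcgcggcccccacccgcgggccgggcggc
Npnt: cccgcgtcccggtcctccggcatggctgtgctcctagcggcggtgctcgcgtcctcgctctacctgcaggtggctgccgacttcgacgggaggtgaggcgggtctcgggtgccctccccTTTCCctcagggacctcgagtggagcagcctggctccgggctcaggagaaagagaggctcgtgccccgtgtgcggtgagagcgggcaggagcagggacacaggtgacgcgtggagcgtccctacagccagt
Hmcn2: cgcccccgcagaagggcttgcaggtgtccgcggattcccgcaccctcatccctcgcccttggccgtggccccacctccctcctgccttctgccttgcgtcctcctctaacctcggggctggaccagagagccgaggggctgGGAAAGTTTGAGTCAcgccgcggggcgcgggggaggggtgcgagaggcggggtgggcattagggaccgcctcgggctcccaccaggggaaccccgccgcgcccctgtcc
The summit fell on base 118 of the run printed for Adsl, 68 for Naa35, 64 for Col15a1, 41 for P2ry14 and 48 for Ccdc3. It fell on base 147 for Cadm2, 112 for Flnc, 174 for Npnt and 69 for Hmcn2. Naa35 held 3 cores, Adsl and P2ry14 held 2 each, Cadm2, Flnc, Npnt and Hmcn2 held 1 each, and Col15a1 and Ccdc3 held 0 in these 250 bases. The runs of Npnt (69.6% G and C) and Hmcn2 (72.4%) were richest in G and C among the 9, and that of P2ry14 (42.8%) was poorest.

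Without regard to base composition, the NFAT core was about as common under R406-only summits as in promoters at large. Within ranges of composition it was more common. GGAAA, searched on both strands, occurred in 742 of 1170 R406-only windows (63.4%), against 61.6% of all 32619 windows, 63.0% of 1887 windows under shared summits and 64.6% of 226 under DMSO-only summits. These windows differ in base composition, which sets how often a short A-rich core occurs: the median content of G and C was 61.0% under R406-only summits and 53.0% over all windows. Among windows with 45 to 60% G and C, the core was in 76.0% of 458 R406-only windows, 66.3% of 15797 windows of any kind and 79.1% of 674 shared windows. In the same range it was in 83.1% of 77 DMSO-only windows. Below 45% it was in 92.3% of 39 R406-only, 83.0% of 47 shared, 88.9% of 9 DMSO-only and 70.3% of 7134 windows of any kind. At 60% and above it was in 53.2% of 673 R406-only, 52.9% of 1166 shared, 52.9% of 140 DMSO-only and 47.4% of 9688 windows of any kind. Within these ranges of composition the shares under R406-only, shared and DMSO-only summits were all above that of all windows. These differences were not tested.

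Motifs of other factors were searched on both strands of the same windows. The GC box GGGCGG, a site of Sp1-type factors, was in 61.2% of R406-only, 70.6% of shared, 65.0% of DMSO-only and 35.9% of all windows. Its R406-only and all-window shares were 42.1 and 23.7% at 45 to 60% G and C, and 77.7 and 80.6% at 60% or above. The AP-1 site TGANTCA, bound by Fos and Jun dimers, was in 4.96% of R406-only, 5.25% of shared, 9.29% of DMSO-only and 7.85% of all windows. At 45 to 60% G and C it was in 8.30% of R406-only, 8.16% of shared, 20.8% of 77 DMSO-only and 8.56% of all windows. TGTGGT, the RUNX core, was in 11.4% of R406-only, 11.9% of shared, 13.3% of DMSO-only and 16.6% of all windows. The TEAD motif GGAATG was in 11.3, 10.6, 11.1 and 14.6% of these 4 sets. At 45 to 60% G and C the R406-only and all-window shares were 13.1 and 19.6% for RUNX and 13.5 and 17.2% for TEAD. Below 45%, with 39 R406-only windows, they were 20.5 and 19.8% for RUNX and 41.0 and 16.0% for TEAD. At 60% or above they were 9.66 and 9.55% for RUNX and 8.02 and 9.40% for TEAD. The composite of GGAAA and AP-1 was in 1 R406-only window, 3 shared windows and 10 of all windows. GGAAAA, which holds GGAAA within it, was in 22.0% of R406-only windows and 23.4% of all windows. Within ranges of composition the order was the other way. Below 45% G and C these shares were 53.8% (of 39 windows) and 33.6%. At 45 to 60% they were 28.4 and 24.9%, and at 60% or above 15.8 and 13.3%. A match describes the letters of these windows only and is not a bound site.

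R406-only peaks were narrow and low compared with shared peaks. Their median width was 377 bp (quartiles 305 and 535 bp, widest 2628 bp), against 725 bp for shared and 352 bp for DMSO-only peaks. The authors' fold, the pileup of fragments at the summit over the background, had a median of 6.96 (quartiles 5.69 and 9.49, highest 46.8), against 13.9 for shared peaks (highest 413.7) and 6.56 for DMSO-only peaks. A fold above 20 was reached by 209 R406-only peaks (0.968%) and 4484 shared peaks (29.5%). The authors' −log10 p-value had a median of 10.4, against 28.1 for shared and 9.56 for DMSO-only peaks. With 1 library per condition none of these differences has a replicate check, and in width, fold and p-value the R406-only peaks lay near the DMSO-only peaks.

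The folds moved in fixed steps, so the number of fragments under a summit could be read back for 20579 of 21590 R406-only peaks, within 0.002 of a step. The median was 10 fragments (quartiles 8 and 14, highest 73), against 21 under shared summits and 8 under DMSO-only summits. Of R406 peaks with up to 9 fragments 90.8% were R406-only, and this share fell to 73.1% at 10 to 14, 52.5% at 15 to 19, 27.5% at 20 to 29 and 5.15% at 30 or more. Ranked by −log10 p-value, the first 1000 R406 peaks included 2 R406-only peaks and the first 5000 included 252 (5.04%). Most R406 peaks of few fragments were therefore R406-only, and most peaks of many fragments were shared.

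**Figure D1:**
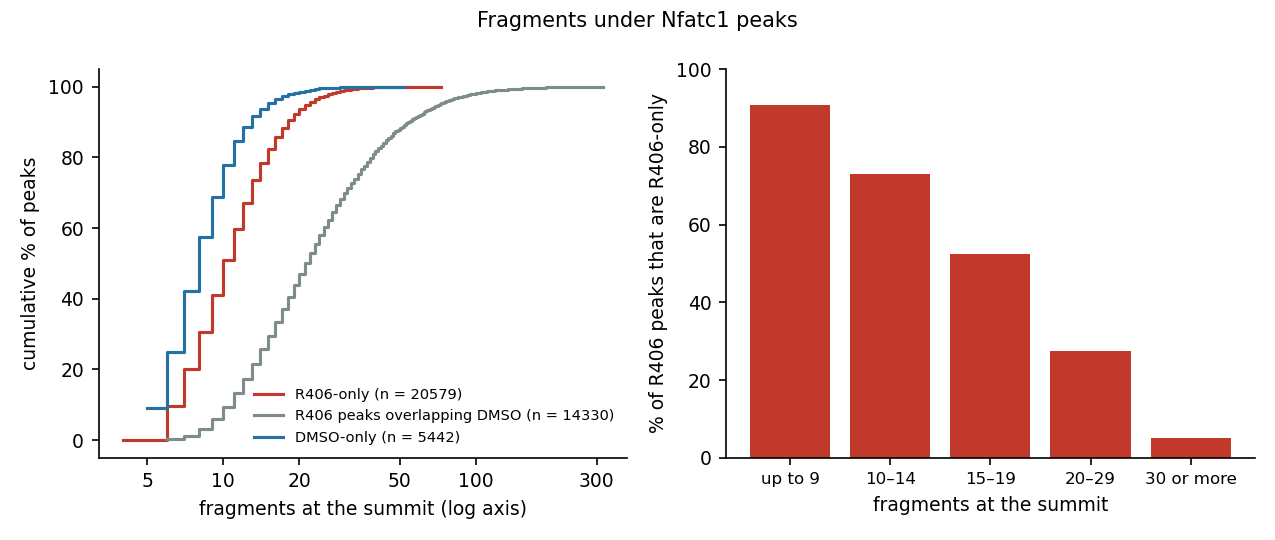
Left, cumulative percent of peaks (y axis) by number of fragments at the summit (x axis, log scale) for R406-only, shared and DMSO-only peaks. Right, percent of R406 peaks that are R406-only in 5 bins of summit fragments; the bars fall from 90.8% at up to 9 fragments to 5.15% at 30 or more.

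The 2 libraries differed in background as well as in the number of peaks. The step of the fold gave a background pileup of 0.373 fragments in the DMSO library and 0.581 in the R406 library, a ratio of 1.56, beside a ratio of 1.74 in peaks called. The lowest summit in the DMSO list had 5 fragments. Multiplied by the background ratio of DMSO to R406 (0.641), the median R406-only summit came to 6.41 fragments, 20.1% of R406-only summits came to fewer than 5, and 17.5% (3602 peaks) to at least 10. For shared R406 peaks the same scaling left 1.27% below 5 and 70.4% at 10 or more. When only the 21157 R406 peaks of highest −log10 p-value were kept, as many as in the DMSO list, 8210 (38.8%) were R406-only. The peak lists give no read count, and the background pileup depends on the number and the length of fragments together. The higher background of the R406 library thus goes with its longer peak list. With 1 library per condition treatment and library cannot be told apart.

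Membership at the edge rested on a few bases. Of the members, 4 touched a DMSO peak with a gap of 0 bp and 22 lay within 10 bp of one, while 33 R406 peaks were left out for an overlap of 1 to 10 bp. The members just inside were a peak of 271 bp in the gene body of Prrx1 (chr1:163299843-163300113, fold 4.43), one at chr11:110633281-110633576 (fold 5.06) and one at chr14:48318318-48318635 (fold 6.92). Just outside, each sharing 1 bp with a DMSO peak, were chr1:125505425-125505745 (fold 7.59), chr14:28826415-28826717 (fold 5.06) and chr17:13682266-13682864 (fold 12.7). Most members lay far from any DMSO peak: the median gap was 20.6 kb, 29.6% were more than 50 kb away and 8.29% within 1000 bp.

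The 10 R406-only peaks of highest fold lay at start sites, in gene bodies and between genes. The strongest, with fold 46.8 and 73 fragments, was a peak of 1390 bp in the body of Tet3 (chr6:83427144-83428533), which encodes an oxidase of 5-methylcytosine, and a DMSO peak stood only 363 bp away. A peak of fold 39.2 lay in the body of Rgl1 (chr1:152677437-152678223), a Ral exchange factor. Another of the same fold lay at an end of the Rfxap span, start or finish (chr3:54807637-54808282), 53137 bp from any DMSO peak. Rfxap encodes a subunit of the RFX complex that drives MHC class II genes. Peaks of fold 35.4 lay at the starts of A230056J06Rik and Naa35 (chr13:59584783-59585824), Adsl (chr15:80948193-80948818) and Arl13b (chr16:62846616-62847089). Naa35 encodes a subunit of an N-terminal acetyltransferase, Adsl an enzyme of purine synthesis and Arl13b a GTPase of primary cilia. The nearest DMSO peaks were 36876, 28547 and 59466 bp away. The others were at the start of Gm34877 beside Pgm2l1 (fold 34.2), in Gm46595 (fold 37.6), and in intergenic stretches 17335 bp from Csf2ra (fold 37.3) and 28237 bp from Sh3bp4 (fold 32.9). The peak in Gm46595 was only 275 bp wide and its fold was off the fixed steps.

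Among the genes at these peaks that were tested in RNA, limma called Rgl1 and not Tet3, Rfxap, Naa35, Adsl, Arl13b or Pgm2l1. Naa35 measured 17.7 and 18.1 TPM in DMSO and 17.4 and 16.1 TPM in R406 (log2 difference −0.09, limma adjusted p = 0.792). Adsl measured 13.3 and 8.67 TPM in DMSO and 15.3 and 10.3 TPM in R406 (log2 0.21, limma adjusted p = 0.719), so its groups overlapped. Rfxap, at 18.7 and 12.6 TPM in DMSO and 21.3 and 14.4 TPM in R406, overlapped as well. Arl13b was at 10.2 and 12.8 TPM in DMSO and 8.06 and 10.5 TPM in R406, also overlapping. Tet3 was higher in both R406 libraries, at 5.28 and 4.31 TPM against 2.91 and 3.10 TPM, without passing limma's threshold (adjusted p = 0.173). Rgl1 fell from 21.8 and 19.5 TPM to 9.03 and 7.66 TPM (log2 −1.21, limma adjusted p = 0.0322). The Rgl1 call was lost without DMSO replicate 1 (0.162), DMSO replicate 2 (0.0946) or R406 replicate 2 (0.0541), and the gene held 14 R406-only and 14 DMSO peaks over its span.

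The widest members were broad rather than tall. The widest, at 2628 bp, lay in the body of Bcor (chrX:12134650-12137277), a corepressor of the polycomb type, with fold 11.4. Peaks of 2487 bp lay 12226 bp from Tbx3os1 (chr5:119596541-119599027, fold 20.9) and at the end of Fosb (chr7:19300401-19302887, fold 12.7), an AP-1 gene, where Gm26802 also starts. Others of 2334 bp and 2273 bp lay in the body of Igfbp7 (chr5:77354772-77357105, fold 11.4), a secreted binder of insulin-like growth factors, and between genes on chromosome 1 (chr1:55828542-55830814, fold 19.6). Igfbp7 measured 578 and 290 TPM in DMSO and 2055 and 1060 TPM in R406, which did not overlap but missed limma's threshold (log2 1.85, adjusted p = 0.0835). On leaving out a library its log2 difference ran from 1.35 to 2.34. Bcor measured 6.39 and 6.49 TPM in DMSO and 7.14 and 7.63 TPM in R406 (limma adjusted p = 0.605). Fosb was at 0.270 and 0.311 TPM in DMSO and 0.169 and 0.144 TPM in R406, too low to be tested.

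R406-only peaks lay less often at gene ends than shared peaks. A gene end here means within 2000 bp of either end of a RefSeq coding or lncRNA span. Of R406-only peaks 26.6% were at a gene end, 42.9% elsewhere in a gene and 30.5% intergenic. The shares were 36.8, 36.3 and 26.9% for shared peaks and 22.3, 45.3 and 32.4% for DMSO-only peaks. Summits within 1000 bp of a RefSeq start site made up 14.5% of the 20788 R406-only peaks with a start site on file for their chromosome, against 24.98% of shared and 11.1% of DMSO-only peaks. The median distance to a start site was 20.1 kb, against 15.7 kb and 24.2 kb. Of the R406-only summits within 1000 bp, 1287 lay before the start and 1727 at or after it, while shared summits divided into 1857 and 1793.

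Closeness to start sites changed with peak height, and not alike in the 3 sets. Among R406-only peaks the share within 1000 bp of a start rose from 8.54% at up to 9 fragments to 15.8, 20.7 and 24.6% in the next bins, and was 23.5% at 30 or more (234 peaks). Shared peaks ran from 13.9 to 31.6%. Among DMSO-only peaks the share went from 11.9% at up to 9 fragments down to 10.5, 7.79 and 6.41% at 20 to 29 fragments (78 peaks). Width grew with height in R406-only peaks, from a median of 324 bp at up to 9 fragments to 718 bp at 30 or more. These shares compare single libraries and were not tested.

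**Figure D2:**
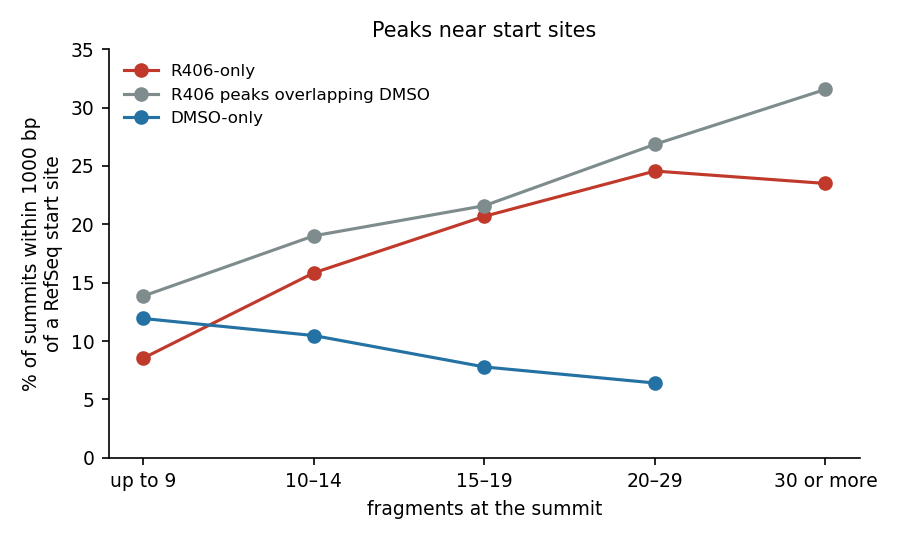
Percent of peak summits within 1000 bp of a RefSeq start site (y axis) by number of fragments at the summit (x axis) for R406-only, shared and DMSO-only peaks; bins under 20 peaks are left out. The R406-only line climbs from 8.54 to 24.6% and the DMSO-only line runs down from 11.9 to 6.41%.

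The R406-only peaks were spread over all 20 chromosomes. Their density ran from 7.03 per Mb on chromosome 14 to 10.7 per Mb on chromosome 11 among autosomes, and was 2.39 per Mb on X, counted up to the end of the last gene. The DMSO list was likewise densest on chromosome 11 (11.7 per Mb), sparsest among autosomes on chromosome 14 (6.88) and lowest on X (1.80). The number of R406-only peaks per chromosome went with the number of DMSO peaks (Pearson r = 0.982 over 20 chromosomes, which share 2 libraries and differ in length). The share of R406 peaks that were R406-only lay between 55.7 and 61.6% on the 19 autosomes and was 65.6% on X (408 of 622).

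**Figure D3:**
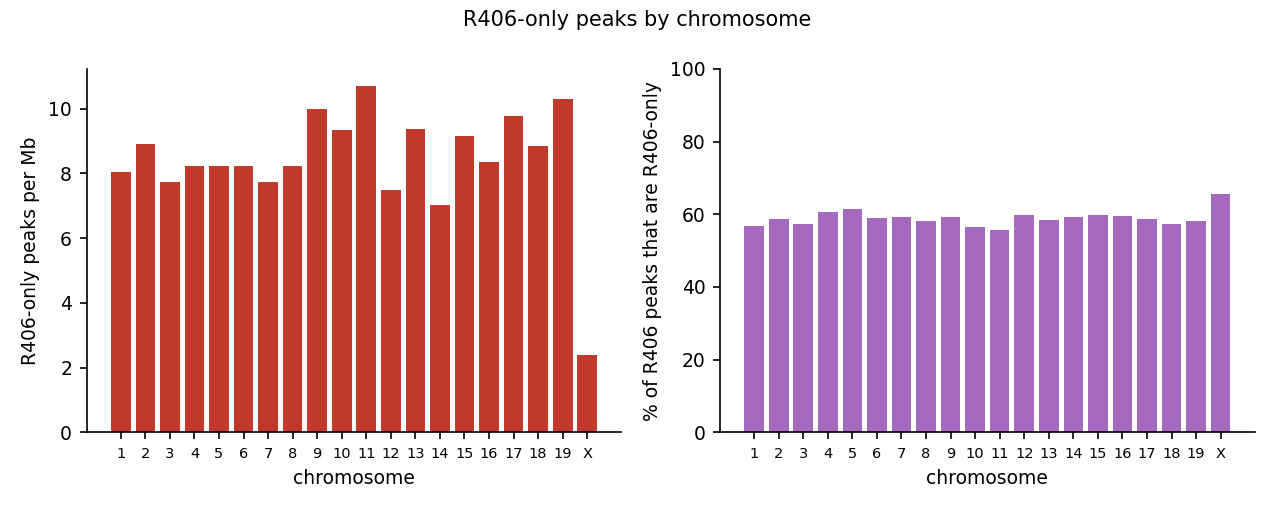
R406-only peaks per Mb (left) and percent of R406 peaks that are R406-only (right) on each chromosome. The X chromosome has the lowest density, 2.39 per Mb, and the largest R406-only share, 65.6%, of the 20.

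An R406-only peak lay at an end of 6344 of 34328 RefSeq genes (18.5%) and of 3886 of 12498 genes tested in RNA (31.1%). Expressed genes held them more often: the share was 10.2% of genes under 1 TPM, 26.1% at 1 to 5 TPM, 30.1% at 5 to 20 TPM, 35.2% at 20 to 100 TPM and 38.3% at 100 TPM or more. Shared peaks showed the same order, from 8.24 to 47.3%. The RNA libraries played no part in choosing the peaks, so the RNA comparison could be tested.

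Few genes with an R406-only peak at an end were called in RNA. Of the 3886, limma called 126 higher with R406 (3.24%) and 140 lower (3.603%), against 4.26% called higher and 4.05% called lower among all 13929 tested genes. The difference between these shares was not tested. Among tested genes matched to a RefSeq span the background was 4.46 and 4.42%. Genes with a shared and no R406-only peak at an end were called higher in 2.09% and lower in 3.51% of 3592. Genes with no peak at an end were called higher in 7.47% and lower in 5.70% of 4593. The median log2 difference was −0.05 for genes with an R406-only peak at an end and −0.03 for all matched genes. Where the ends held an R406-only peak and no DMSO peak, 3.69% of 2710 genes were called higher and 3.14% lower. The counts depend on single libraries: without DMSO replicate 1 they fell to 31 higher and 24 lower, and without DMSO replicate 2 to 69 and 67. Without R406 replicate 2, 195 were called higher. In bulk RNA fewer cells of a type and less RNA per cell cannot be told apart.

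The genes with the largest rises were of mixed kinds. By a fixed rule these were the 12 largest changes in each direction among called genes with an R406-only peak at an end, at least 5 TPM in the higher group and groups that did not overlap. Col15a1, a collagen of basement membranes, measured 1.54 and 1.97 TPM in DMSO and 53.6 and 47.0 TPM in R406 (log2 4.22 ± 0.20 SE, limma adjusted p = 0.00785). Its R406-only peak of 8 fragments lay 187 bp before the start site, in the stretch printed above. Calb2, the calcium binder calretinin, measured 1.03 and 0.904 TPM in DMSO and 22.1 and 18.5 TPM in R406 (log2 3.43 ± 0.20, limma adjusted p = 0.00886). Gldc, the glycine decarboxylase, rose from 5.00 and 5.87 TPM to 77.3 and 52.0 TPM, and its gene held 1 R406-only and 8 DMSO peaks. Ptf1a, a transcription factor of pancreas and cerebellum, measured 0.804 and 0.842 TPM in DMSO and 18.04 and 10.4 TPM in R406. In each of these genes every R406 library was well above every DMSO library.

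P2ry14, a receptor for UDP-sugars, rose from 0.556 and 0.705 TPM to 10.1 and 12.3 TPM (log2 2.90, limma adjusted p = 0.0117), with 3 R406-only and 0 DMSO peaks over its span. Slc12a2, the sodium, potassium and chloride cotransporter, measured 7.29 and 7.33 TPM in DMSO and 50.9 and 54.1 TPM in R406 (log2 2.69, limma adjusted p = 0.0110). Mfap4, a glycoprotein of elastic fibres, rose from 4.35 and 4.07 TPM to 39.0 and 32.9 TPM. Tbx3os1, a non-coding RNA opposite Tbx3, had 3 R406-only peaks at its ends, the strongest of 1494 bp, and rose from 2.66 and 3.76 TPM to 33.4 and 23.6 TPM. The kit does not mark strand, so its reads and those of overlapping genes cannot be told apart. The other rises were Aifm3, Prr15l, Slc26a10 and Ly6g6c, with log2 changes of 2.73 to 3.31.

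The largest falls included genes of the matrix, secreted factors and an AP-1 protein. Tchh, the hair follicle protein trichohyalin, measured 42.2 and 27.0 TPM in DMSO and 2.17 and 1.77 TPM in R406 (log2 −3.55 ± 0.27 SE, limma adjusted p = 0.0125), with 2 R406-only peaks at its ends and no DMSO peak closer than 110196 bp to the stronger. Grem1, an antagonist of BMP signals, fell from 85.7 and 86.0 TPM to 9.70 and 11.6 TPM (log2 −2.90, limma adjusted p = 0.0110). Nid1, the basement membrane protein nidogen, fell from 229 and 194 TPM to 32.5 and 35.6 TPM. Plat, the tissue plasminogen activator, measured 238 and 204 TPM in DMSO and 39.4 and 33.3 TPM in R406. Pmaip1, the BH3-only protein Noxa, fell from 351 and 405.8 TPM to 72.6 and 88.0 TPM (log2 −2.23, limma adjusted p = 0.0148). All 5 had both R406 libraries far below both DMSO libraries.

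Vgf, a precursor of secreted peptides, had 2 R406-only peaks at its ends, the stronger of 22 fragments, and fell from 176.5 and 69.3 TPM to 14.9 and 5.47 TPM. Fosl1, the AP-1 protein Fra-1, had 2 R406-only and 2 DMSO peaks at its ends and fell from 70.3 and 33.8 TPM to 10.7 and 7.75 TPM (log2 −2.30, limma adjusted p = 0.0373). Cd34, a sialomucin of stem and endothelial cells, measured 13.1 and 7.32 TPM in DMSO and 0.895 and 0.834 TPM in R406. Htr1b, a serotonin receptor, fell from 22.6 and 21.9 TPM to 2.70 and 2.68 TPM, and held 4 DMSO peaks beside its R406-only peak. C2cd4a, Ms4a7 and Prrg4 completed the 12, with log2 changes of −3.54, −3.02 and −2.33. Of these 24 genes 21 kept their call on leaving out any 1 library. Slc26a10 (0.0505), Vgf (0.0570) and Fosl1 (0.0653) lost it without DMSO replicate 1. At the ends of 16 of the 24 the DMSO list had no peak.

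**Figure D4:**
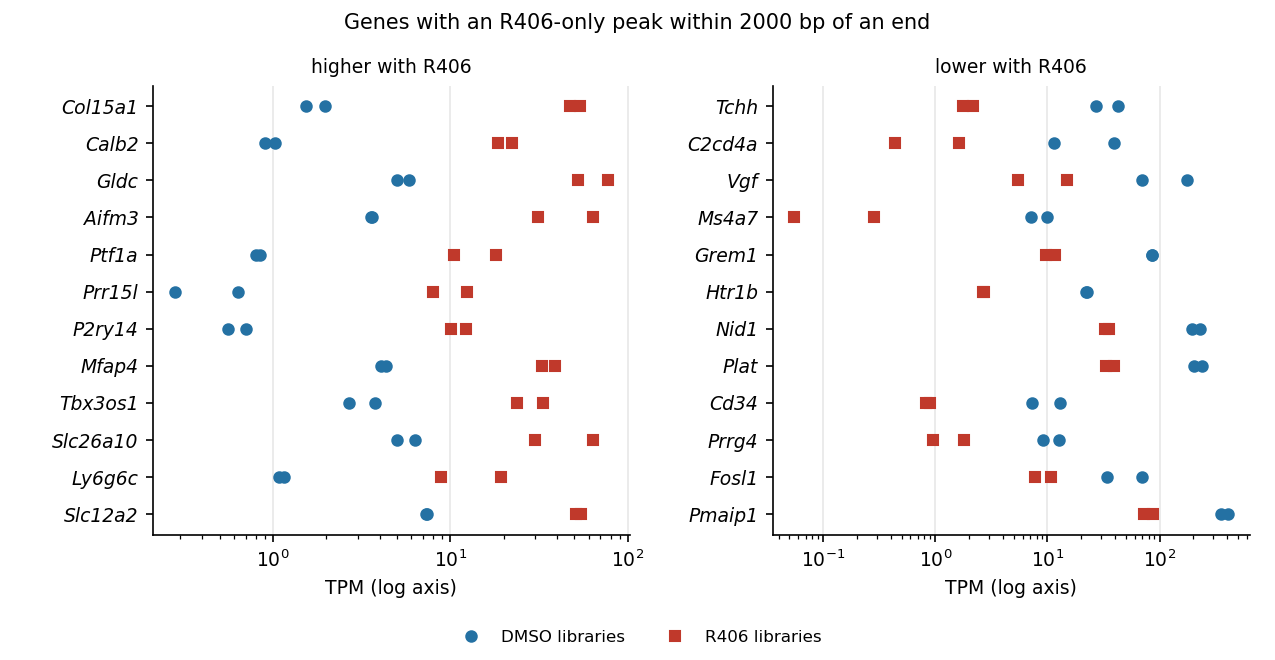
TPM (x axis, log scale) in each DMSO library (circles) and each R406 library (squares) for the 12 largest rises (left) and 12 largest falls (right) among called genes with an R406-only peak within 2000 bp of an end. In all 24 genes the groups do not overlap; Col15a1 has the largest rise (log2 4.22) and Tchh the largest fall (log2 −3.55).

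Macrophage markers moved in the same RNA libraries. Ms4a7, a membrane protein of macrophages, was at 7.17 and 9.94 TPM in DMSO and 0.283 and 0.0554 TPM in R406. Cd68 fell from 7.74 and 10.2 TPM to 1.35 and 2.60 TPM (limma adjusted p = 0.0335) and the receptor gene Csf1r from 3.04 and 2.62 TPM to 0.685 and 0.626 TPM (limma adjusted p = 0.0302). Both calls were lost without DMSO replicate 1 (0.0572 and 0.109) or DMSO replicate 2 (0.0631 and 0.0534). An R406-only peak lay at an end of 3 of 21 macrophage genes, Cd14 being the third. Cd14 did not fall: it measured 14.8 and 9.04 TPM in DMSO and 14.2 and 15.4 TPM in R406 (limma adjusted p = 0.516). Over the whole list limma called 13 of 15 tested genes lower, beside 4.05% of all tested genes. The 21 genes summed to 310 and 258 TPM in DMSO and 23.8 and 25.5 TPM in R406, and 15 of them had a mean of at least 1 TPM. Cybb was listed at 0 in all 4 libraries. The epithelial list of 28 genes summed to 296 and 281 TPM in DMSO and 1454 and 836 TPM in R406. The part of other cell types in the calls at R406-only peaks was not tested.

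Peaks gathered in long genes. Over the gene span with 2000 bp on both sides, 10324 genes held at least 1 R406-only peak (48.2% of tested genes did), 3431 at least 2, 532 at least 5 and 86 at least 10. The largest numbers were 21 in Msi2 and Rad51b and 20 in Aopep, Cmss1 and Fhod3, whose spans were 305 to 551 kb. Msi2, an RNA-binding protein of progenitor cells, held 21 R406-only and 3 DMSO peaks, and Fhod3, an actin-nucleating formin, held 20 and 8. Rad51b, a DNA repair gene, held 21 and 23, Aopep 20 and 26, and Cmss1 20 and 29. Rad51b rose from 2.01 and 2.15 TPM to 7.31 and 7.01 TPM (log2 1.41, limma adjusted p = 0.0215), a call lost without DMSO replicate 1 (0.0933) or 2 (0.0575). Fhod3 measured 51.9 and 44.5 TPM in DMSO and 31.7 and 21.8 TPM in R406 without passing limma's threshold (adjusted p = 0.110), and Msi2 measured 9.52 and 12.3 TPM against 7.54 and 9.53 TPM.

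Among the 423 tested genes with 5 or more R406-only peaks over the span, 12 were called higher (2.84%) and 48 lower (11.3%), with a median log2 difference of −0.32. Long genes as a whole had like values. Of the 557 tested genes of 200 kb or more, 2.15% were called higher and 11.5% lower (median −0.29), and 506 of them held an R406-only peak. In these long genes 11.9% of those with an R406-only peak were called lower, against 7.84% of the 51 without, and the median log2 differences were −0.32 and 0.01. At 100 to 200 kb the shares called lower were 7.84% of 765 and 7.69% of 234. In genes under 10 kb, 2.95% of 1188 with an R406-only peak were called higher, against 8.15% of 2110 without, and 2.44% against 4.64% were called lower. The values by gene length were not tested against each other.

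**Figure D5:**
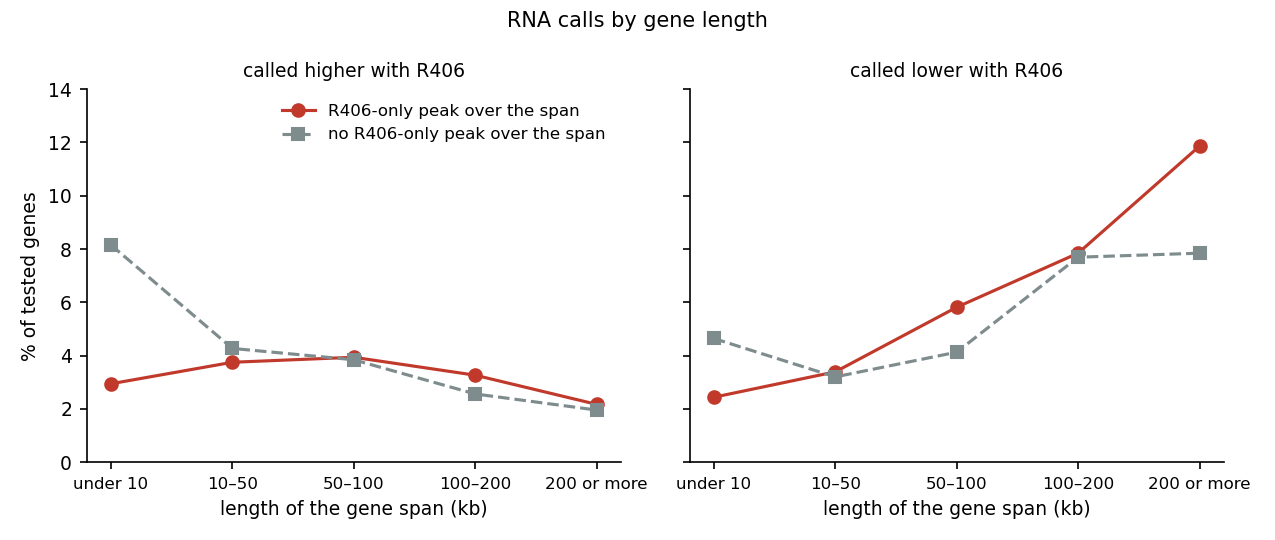
Percent of tested genes (y axis) called higher (left) or lower (right) with R406 by limma, by length of the gene span in kb (x axis), for genes with an R406-only peak over the span and genes without. The share called lower climbs with length in genes with R406-only peaks, from 2.44 to 11.9%, and is 7.84% in the longest genes without.

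Most genes of the Syk, calcineurin and NFAT pathway held an R406-only peak somewhere over the span. Limma, fitted without a term for replicate number, called 1 gene of the list in RNA. Of its 41 listed members, 16 had an R406-only peak at an end and 28 over the span (68.3%), with 80 such peaks in all. The share over the span was 48.2% for all tested genes and 90.8% for those of 200 kb or more. Itpr1, Itpr2 and Vav3 of this list span 338 to 394 kb. Among tested members 15 of 35 had one at an end (42.9%), beside 31.1% of all tested matched genes. Of those 15, limma called 0 higher and 1 lower, with a median log2 difference of −0.22, and of all 35 it called 0 higher and 1 lower (median −0.39). Of all tested genes it called 4.26% higher and 4.05% lower. At the top of the chain, Syk had 3 R406-only and 0 DMSO peaks at its ends, the strongest at chr13:52650783-52651105 with fold 11.4, and DMSO peaks began 425 bp beyond it. Syk itself was low, at 0.958 and 1.23 TPM in DMSO and 1.74 and 1.02 TPM in R406, which overlapped (limma adjusted p = 0.705).

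Below Syk, Plcg1, the phospholipase that releases inositol trisphosphate, had 1 R406-only peak before its start (fold 5.69) and measured 27.3 and 23.5 TPM in DMSO and 17.95 and 15.1 TPM in R406 (limma adjusted p = 0.143). Vav3, an exchange factor that links kinases to calcium signals, had one of fold 12.7 lying 499 bp before the start and measured 21.1 and 20.9 TPM against 11.8 and 13.3 TPM (limma adjusted p = 0.0856). Itpr1, a calcium release channel, had an R406-only peak of fold 12.0 at an end of its span, start or finish (chr6:108212671-108213044), 52 bp from a DMSO peak. Itpr1 fell from 14.6 and 17.4 TPM to 5.25 and 4.81 TPM (log2 −1.50 ± 0.20 SE, limma adjusted p = 0.0221), a call lost without DMSO replicate 1 (0.0697) or 2 (0.0712). Itpr2, its relative, held 15 R406-only and 7 DMSO peaks over its span and measured 2.13 and 1.54 TPM against 0.810 and 0.670 TPM (limma adjusted p = 0.112). Orai3, a calcium entry channel, had 3 R406-only peaks at its ends, the strongest of 1537 bp and fold 18.98, and its RNA groups overlapped (16.1 and 13.0 against 19.2 and 14.96 TPM).

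Of the calcineurin genes, Ppp3r1, the regulatory subunit, had an R406-only peak of fold 16.4 near its start (chr11:17159899-17160701), 263 bp from a DMSO peak, and Ppp3ca, the catalytic subunit, had 3 in its body. Ppp3r1 measured 78.1 and 87.4 TPM in DMSO and 60.8 and 67.1 TPM in R406 (limma adjusted p = 0.285), and Ppp3ca 41.8 and 38.2 against 30.1 and 28.0 TPM (limma adjusted p = 0.196). Calm2, one of the calmodulin genes, had an R406-only peak of fold 13.3 at an end and measured 490 and 528 TPM in DMSO and 390 and 387 TPM in R406 (limma adjusted p = 0.248). Dyrk2, a kinase that returns NFAT to the cytoplasm, had a peak of fold 16.4 within its span (chr10:118869522-118870017) and measured 26.3 and 28.2 TPM against 15.6 and 17.0 TPM (limma adjusted p = 0.0820). None of these 4 genes passed the threshold in this fit. With a term for replicate number, which no label explains, all 4 did (limma adjusted p 0.0121 to 0.0328). The fit with that term called 15.3% of all tested genes higher and 18.2% lower. The Nfatc1 gene itself held 6 R406-only and 12 DMSO peaks over its span. Its RNA measured 2.41 and 2.98 TPM in DMSO and 7.36 and 5.45 TPM in R406 (limma adjusted p = 0.0659 without the replicate term). On leaving out a library its log2 difference ran from 0.808 to 1.18.

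Of 27 listed NFAT target genes, 7 had an R406-only peak at an end, beside 18.5% of all RefSeq genes. Of the 13 tested, 6 had one, beside 31.1% of all tested matched genes. Without the replicate term limma called 0 of the 6 in either direction and 1 of the 13 lower. It called 4.26% of all tested genes higher and 4.05% lower. Rcan1, a calcineurin inhibitor that NFAT induces, held 10 R406-only peaks over its span and 13 DMSO peaks. Its strongest R406-only peak at an end had fold 12.0 (chr16:92465083-92465870) and lay 310 bp from a DMSO peak. Rcan1 measured 160 and 128 TPM in DMSO and 159 and 128 TPM in R406 (limma adjusted p = 0.992), so no difference was detectable. Acp5, a phosphatase of osteoclasts, measured 34.0 and 30.4 TPM in DMSO and 52.3 and 59.0 TPM in R406 (limma adjusted p = 0.0746). Vcam1, an adhesion molecule, measured 28.8 and 27.9 TPM against 16.2 and 16.3 TPM (limma adjusted p = 0.0660), and Nr4a1, a nuclear receptor induced by calcium, 14.8 and 10.8 against 9.65 and 7.18 TPM. Each of these 3 genes had 1 weak R406-only peak at an end, of fold 5.69, 6.96 and 8.22.

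Immediate early and mesenchymal genes held R406-only peaks at many ends. Such a peak lay at an end of 31.1% of all tested matched genes, 35.2% at 20 to 100 TPM and 38.3% at 100 TPM or more. Of 21 AP-1 and immediate early genes 13 had one (10 of 17 tested, 58.8%), among them Fos, Fosb, Fosl1, Jun, Junb and Jund, and of the tested 10 limma called only Fosl1, as lower. Of 27 fibroblast and mesenchyme genes 14 had one (51.9%), and limma called 3 of these higher and 0 lower, while over the whole list it called 3 higher and 4 lower. Of all tested genes it called 4.26% higher and 4.05% lower. Col3a1, a fibrillar collagen, rose from 215 and 252 TPM to 786 and 616 TPM, Col5a2 from 69.2 and 75.3 TPM to 179 and 139 TPM, and Postn, the matrix protein periostin, from 14.9 and 15.4 TPM to 49.6 and 51.7 TPM. Their limma adjusted p were 0.0257, 0.0439 and 0.0165. Without DMSO replicate 1 all 3 calls were lost (0.116, 0.218 and 0.0653). Without DMSO replicate 2 those of Col3a1 (0.0638) and Col5a2 (0.154) were lost, and without R406 replicate 1 that of Col5a2 (0.104). Col5a2 had a broad R406-only peak of 1596 bp at an end of its span, start or finish (chr1:45502264-45503859).

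Of 26 TGF-beta and BMP genes 11 had an R406-only peak at an end, and limma called 1 of them, Tgfbr2, lower, beside 2 lower over the list. Tgfbr2, the type II receptor, fell from 202 and 189 TPM to 58.3 and 51.0 TPM (log2 −1.82, limma adjusted p = 0.0165, or 0.0599 without DMSO replicate 1). Of 24 contractile genes 4 had one, and limma called 3 of them lower, beside 10 of the 23 tested genes of the list and 4.05% of all tested genes. These were Ccn1, a secreted matricellular protein (287 and 188 TPM to 64.1 and 48.7 TPM), Vcl, the adhesion protein vinculin (27.8 and 17.99 TPM to 4.35 and 4.78 TPM), and Lmod1, a muscle leiomodin (62.9 and 56.5 TPM to 29.8 and 27.2 TPM). Their limma adjusted p were 0.0262, 0.0209 and 0.0382, and without DMSO replicate 1 they were 0.0726, 0.0544 and 0.227. Lmod1 also lost its call without DMSO replicate 2 (0.148), R406 replicate 1 (0.0628) or R406 replicate 2 (0.0878). No gene of that list was called higher.

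Metabolic genes were taken next. Of 29 serine, glycine and one-carbon genes 11 had one, and limma called 3 of these higher, Gldc, Slc1a5 and Tyms. It called 5 of the 28 tested genes of the list higher, beside 4.26% of all tested genes. Slc1a5, a glutamine transporter, rose from 8.31 and 6.68 TPM to 35.7 and 20.9 TPM, and Tyms, thymidylate synthase, whose peak summit lay 29 bp before the start, from 6.68 and 7.31 TPM to 15.9 and 16.2 TPM. Their limma adjusted p were 0.0382 and 0.0342. The Slc1a5 call was lost without DMSO replicate 1 (0.0791) or 2 (0.0862), and that of Tyms on leaving out any library (0.0573 to 0.192). Of 20 transsulfuration and hydrogen sulphide genes 3 had one, and over the whole list limma called 1 gene higher and 1 lower. Among these Cth, the hydrogen sulphide-producing cystathionine gamma-lyase, had 2 R406-only and 0 DMSO peaks at its ends and rose from 1.97 and 2.19 TPM to 6.13 and 5.72 TPM (limma adjusted p = 0.0313). That call held only without R406 replicate 2 (0.0350), and was 0.150, 0.0893 and 0.0579 in the other leave-outs. Gclc, the glutathione synthesis ligase, had a peak of fold 12.7 and measured 39.4 and 35.045 TPM in DMSO and 22.1 and 21.9 TPM in R406 (limma adjusted p = 0.0764).

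Of 24 glycolysis and lactate genes 10 had an R406-only peak at an end, and limma called only Pdk4 of these, as lower, and 1 gene of the list higher. Pdk4, a kinase that shuts off pyruvate dehydrogenase, had the summit of a peak 2 bp before its start (chr6:5496265-5496917, fold 8.22) and fell from 4.16 TPM in both DMSO libraries to 1.47 and 1.54 TPM (limma adjusted p = 0.0373), a call lost on leaving out any library (0.0541 to 0.150). Of 27 extraembryonic endoderm genes 6 had one, and over the whole list limma called 12 of 23 tested genes higher and 1 lower. The shares of all tested genes were 4.26% higher and 4.05% lower. Lama1, a laminin chain, rose from 6.10 and 7.94 TPM to 62.5 and 32.2 TPM (limma adjusted p = 0.0266, or 0.0562 without DMSO replicate 1). Foxa1, a pioneer factor of endoderm, fell from 4.00 and 3.41 TPM to 1.35 and 0.894 TPM (limma adjusted p = 0.0424), a call that held only without R406 replicate 1 (0.0351) and was 0.154, 0.0764 and 0.0713 in the other leave-outs.

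Of 26 pluripotency genes 5 had an R406-only peak at an end, namely Esrrb, Lin28a, Nr5a2, Sox2 and Tbx3. Only 7 of the list were tested, and of the 2 with such a peak both were called higher, as were 4 of the 7. For this and the next lists, the shares of all tested genes were 4.26% called higher and 4.05% lower. Tbx3, a T-box factor, rose from 19.1 and 18.2 TPM to 64.3 and 53.4 TPM (limma adjusted p = 0.0192), and Lin28a, a repressor of let-7, from 0.750 and 1.92 TPM to 6.77 and 5.61 TPM (limma adjusted p = 0.0415). Without DMSO replicate 1 the values were 0.0742 and 0.111, and without DMSO replicate 2 that of Tbx3 was 0.0612. Of 36 secreted chemokine and matrix protease genes 4 had one, and limma called 2 of them lower, beside 14 lower and 1 higher of the 31 tested genes of the list. Ccl7, a monocyte chemokine, fell from 352 and 306 TPM to 65.4 and 84.8 TPM (limma adjusted p = 0.0165), and Mmp13, a collagenase, from 11.7 and 13.1 TPM to 2.04 and 1.78 TPM (limma adjusted p = 0.0137). Of 28 epithelial genes 3 had one, and limma called 1 of them, the junction gene Tjp3, higher, while over the whole list it called 17 of 24 tested genes higher and 1 lower. Tjp3 rose (0.942 and 1.01 TPM to 10.6 and 4.45 TPM, limma adjusted p = 0.0476). That call was lost without DMSO replicate 1 (0.0960) or 2 (0.0632). Of 15 neural and glial genes Nes alone had one, and of 8 adipocyte genes Cidec alone, and neither was called or, for Cidec, tested. The endothelial and striated muscle lists, of 13 genes each, had 0 genes with an R406-only peak at an end.

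Of the other printed runs, these 4 belong to genes shown for the size of their change, which is given as a description. Ccdc3, a secreted protein of fat and vessels, had 4 R406-only and 0 DMSO peaks and rose from 8.73 and 9.48 TPM to 57.9 and 44.1 TPM (log2 2.35, limma adjusted p = 0.0148). Cadm2, a cell adhesion molecule of neurons, fell from 6.63 and 7.82 TPM to 0.792 and 1.02 TPM (log2 −2.11, limma adjusted p = 0.0151), and a DMSO peak lay 471 bp from its R406-only peak. Npnt, the integrin ligand nephronectin, fell from 9.13 and 9.78 TPM to 2.02 and 1.90 TPM (log2 −1.82, limma adjusted p = 0.0165), with no DMSO peak closer than 78060 bp. Flnc, a filamin of muscle, fell from 40.1 and 25.6 TPM to 9.04 and 5.73 TPM (log2 −2.01, limma adjusted p = 0.0327, or 0.0845 without DMSO replicate 1).

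MicroRNA genes were also among the places marked. Of 1005 RefSeq hairpins on these chromosomes, 80 had an R406-only peak within 2000 bp and 13 lay under one, while 107 had a DMSO peak and 87 a shared R406 peak within 2000 bp. For 60 of the 80 no DMSO peak lay within 2000 bp. The 6 mature sequences below were chosen after the list was seen, to show pairs that share a seed (bases 2 to 8, in capitals) and 2 well-known members. miR-125a-5p lies at chr17:17830817-17830840 (plus). miR-125b-5p lies at chr9:41581940-41581961 (plus). miR-190a-5p lies at chr9:67236700-67236721 (minus). miR-190b-5p lies at chr3:90070030-90070051 (plus). miR-34a-5p lies at chr4:150068473-150068494 (plus). miR-210-3p lies at chr7:141221407-141221428 (minus).
miR-125a-5p: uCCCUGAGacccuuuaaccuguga
miR-125b-5p: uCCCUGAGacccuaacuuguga
miR-190a-5p: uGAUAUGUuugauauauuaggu
miR-190b-5p: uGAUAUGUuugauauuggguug
miR-34a-5p: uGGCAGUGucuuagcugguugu
miR-210-3p: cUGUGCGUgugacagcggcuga
The hairpins of miR-125a and miR-125b, which share a seed and restrain Lin28a in differentiating cells, lay 926 and 824 bp from R406-only peaks of fold 8.86 and 7.59. Those of miR-190a and miR-190b, with another shared seed, lay 466 and 1104 bp from peaks of fold 20.2 and 6.96. The hairpin of miR-34a, a p53 target, lay 189 bp from a peak of fold 7.59, and that of miR-210, which hypoxia induces, 68 bp from a peak of fold 13.3. Small RNAs were not measured, so no level can be given for any of them.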

How the data were processed

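CUT&Tag for FLAG-tagged Nfatc1 (1 library with DMSO, 1 with R406) and RNA-seq (2 and 2 libraries) were analysed, grouped by sample titles. The peak rule and the gene lists were chosen with earlier results of these data known.

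The authors deposited 1 peak list per CUT&Tag library, with fold, −log10 p-value, −log10 q-value and score. Aligner and caller were Bowtie2 2.2.5 and MACS2 2.1.2, and the build mm10, as named in the submitters' processing notes. The use of the blank as control is not given in the sources used here. Summit fragments were computed as fold divided by the step of the fold, minus 1. Whether PCR duplicates were removed is not given in the sources used here.

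The authors deposited TPM per gene, whose values were used unscaled. The submitters' processing notes also name HISAT2 2.1.0 and StringTie 2.0. TPM sums are fixed, so rises of some genes lower others, and read depth is unknown. The single files equalled the table (53715 genes), with 13537 to 14045 genes at 1 TPM or more per library. R406 was compared with DMSO on log2(TPM + 1) for 13929 genes averaging 1 TPM or more, with limma 3.58.1 (R 4.3.3). This scale understates changes of low genes. The test was two-sided with a trend, adjusted by Benjamini-Hochberg, and called at 0.05. RNA symbols were matched to 34328 RefSeq spans (GRCm38.p6), giving 12498 tested and matched genes, and start sites came from 32619 promoter windows, which hold none of chromosome 18. Peak and motif code ran in Python 3.11.15. Interval code and limma were tested on simulated data. Some listed genes are not reported here.

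Named peaks were the 10 of highest fold, the 5 widest, those at pathway and target genes, and 3 on each side of the overlap limit. Named genes were those at these peaks, 12 per direction among calls at R406-only peaks with at least 5 TPM in the higher group, the 5 with most peaks, and up to 4 per list by p. Alternatives covered the overlap rule, peak strength, distance to a gene end, pseudocount, filter, scaling, replicate block and each library left out.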

Additional observations from a re-analysis of the deposited data

How the results depend on the processing

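The number of R406-only peaks moved with the peak strength required and with the overlap rule. It was 12815 (47.3% of R406 peaks) among peaks with −log10 p of at least 10, and 8210 (38.8%) among as many R406 peaks as the DMSO list holds. The share was 56.2% at fold of at least 5. It was 57.8% or 53.8% when a DMSO peak within 200 or 1000 bp counted as shared, 63.7% when the R406 summit had to lie in a DMSO peak, 68.2% when 50% of the R406 peak had to be covered, and 66.9% against DMSO peaks with −log10 p of at least 10. Other distances to a gene end and stricter peaks moved the number of genes and of calls by less than 1.5 times. All RNA counts are by limma. Over all genes tested, the counts higher and lower were 311 and 332 with a mean of at least 5 TPM, 877 and 850 with quantile normalization and 933 and 755 with median centring. At R406-only peaks these were 71 and 91, 196 and 213, and 210 and 195. Without a filter 0 genes were called in either direction at adjusted p of 0.05, while 5394 had an unadjusted p under 0.05. Leaving out a library gave 159 to 914 higher and 158 to 574 lower over all genes, and 31 to 195 higher and 24 to 141 lower at R406-only peaks, the lowest without DMSO replicate 1. Of the 266 calls at R406-only peaks, 51 were still called without DMSO replicate 1, 118 without DMSO replicate 2, 188 without R406 replicate 1 and 211 without R406 replicate 2. The cause was not tested. Replicate numbers are shared between groups, but no label says what a number marks. The deviations of equally numbered libraries correlated over genes (r = 0.556, 13929 genes, 2 pairs). With the replicate block 2128 genes were called higher and 2535 lower, 519 and 754 of them at R406-only peaks, and all 266 calls were among these. Some pathway and target genes named here were called by limma with the block and not without it. Their adjusted p with the block was 0.0121 for Dyrk2, 0.0163 for Vav3, 0.0183 for Plcg1, 0.0219 for Calm2 and 0.0263 for Nfatc1. It was 0.0271 for Ppp3ca, 0.0328 for Ppp3r1 and 0.0491 for Itpr2. Among target genes it was 0.0137 for Acp5, 0.0105 for Vcam1 and 0.0311 for Nr4a1. No gene named here that was called changed direction under any alternative. Among genes without a call, the log2 difference of Rcan1 was 0.0546 with quantile normalization and 0.0387 with median centring, and on leaving out a library ran from −0.166 to 0.156. It ran from −0.0832 to 0.45 for Rfxap, −0.0744 to 0.488 for Adsl and −0.0536 to 0.392 for Syk. With 1 CUT&Tag library per condition no leave-out of peaks was possible.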
